A study of Brassica napus with 12 samples.

Results

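The genes described here were counted in leaves of Avatar but not, or hardly, in leaves of Zhongshuang 9; both are cultivars of oilseed rape, Brassica napus. A gene was a member when it reached at least 2 CPM (counts scaled by the sum of the library) in all 6 Avatar libraries and had at most 2 counts in each of 5 Zhongshuang 9 libraries. The sixth Zhongshuang 9 library, submergence replicate 1, stood apart from its group and had no part in the choice. The rule found 158 members among 101040 annotated coding sequences, or among the 26626 that reached 2 CPM in all 6 Avatar libraries. With the cultivars exchanged, the same limits found 72 genes.

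RNA came from first true leaves of seedlings aged 16 days, 3 libraries for each of 4 groups, with replicates numbered 1, 3 and 4. Avatar and Zhongshuang 9 plants were each kept in air or fully under tap water for 24 h, from day 15 on and 2 h into an 8 h day. Both treatments kept that day length, and control plants stood in similar boxes without water. The labels do not say whether a library holds 1 plant or several, so p-values measure only the spread between these samples.

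Brassica napus is an allotetraploid: it carries an A and a C subgenome from different ancestors, and many genes exist as an A and a C copy. Corresponding A and C chromosomes, such as A01 and C01, are largely collinear. In this species pairing between them in meiosis can replace a piece of a chromosome by its counterpart, a change known as a homoeologous exchange, and cultivars are known to differ in such exchanges and in which genes they carry. The files hold RNA values only, so whether a gene is present in the DNA of a plant was not measured. Of the members, 1 of 158 matched RefSeq's gene table (assembly Da-Ae), and it carried no name beyond its locus. Members are therefore called by identifier, which gives the chromosome and a gene number that runs along it, and no function is assigned.

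Libraries held 24389999 to 35873330 rounded counts. Where a library has 0 counts of a gene, counting error alone allows a level of up to 3 counts, or 0.0836 to 0.123 CPM. Zhongshuang 9 submergence replicate 1 had rank correlations across genes of 0.914 and 0.913 with replicates 3 and 4 under the same treatment, while that pair reached 0.978. Its correlation with the Avatar submergence libraries was 0.875 to 0.888, below the 0.903 to 0.905 of the other 2.

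The members chosen by these limits were well counted in Avatar and nearly empty in the 5 Zhongshuang 9 libraries. Together they held 0.142% to 0.158% of all counts in Avatar air and 0.219% to 0.232% in Avatar submergence. In the 5 Zhongshuang 9 libraries the 158 members had 237 counts in all, and 57 members had none. The highest count in any of the 5 was 1 for 59 members and 2 for 42. These values chose the members and are a description. At the lower edge, BnaC02g26900D and BnaA03g46850D had a lowest Avatar level of 2.17 CPM, while BnaC07g13500D and BnaA01g31800D stayed outside at 1.99 CPM. A further 21 genes met the CPM limit but had a highest count of 3, among them BnaA02g11080D at a mean of 86.5 CPM and BnaA09g43600D at 42.3 CPM in Avatar.

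**Figure D1:**
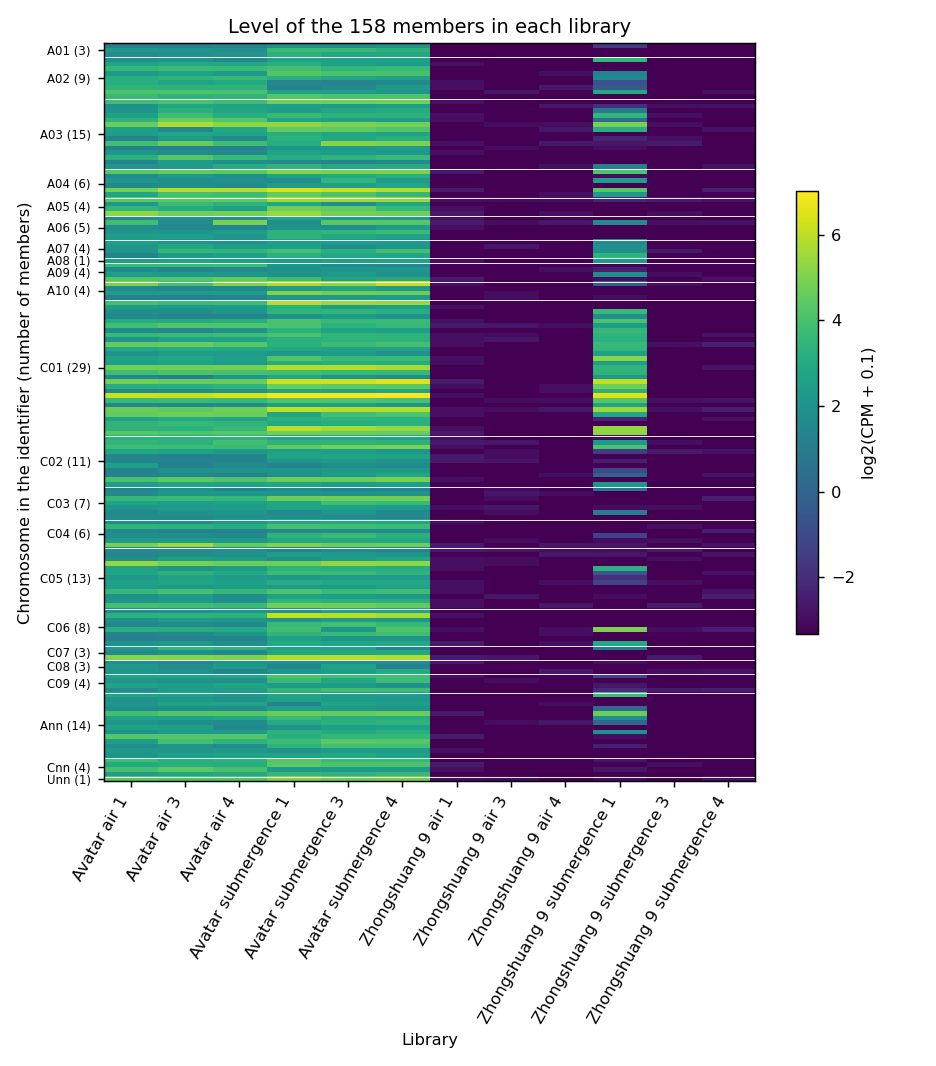
Level of each of the 158 members (rows, by chromosome and gene number, with the number of members per chromosome) in the 12 libraries (columns), as log2(CPM + 0.1). All 6 Avatar libraries are bright and 5 of the Zhongshuang 9 libraries are dark by choice, while Zhongshuang 9 submergence replicate 1 shows 81 of the members, with a solid band on C01.

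Members were shorter than other genes at the same minimum level. Their median coding length was 834 bases, against 1218 over the 26626 genes. This did not hold for the 25 members of a stretch of C01, described below. Their median was 1338 bases, and that of the 133 other members 711. Per length the level of all members was similar, with a median of 7.63 TPM (transcripts scaled by length and library) over the 6 Avatar libraries against 6.63 TPM. It was 3.42 TPM in that stretch and 8.865 TPM over the other members. Estimated counts are not whole where the counting program divides reads between similar sequences. In the Avatar libraries 68.5% of the members' values were not whole, against 81% over the 26626 genes, and 33 members (20.9%) had whole values in all 6 libraries, against 6.67%. In the stretch 84.7% of values were not whole, and 8% of its members had whole values in all 6 libraries. Over the other members these shares were 65.4% and 23.3%. Values of members that share reads with a near-identical copy are uncertain individually.

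By identifier, 55 members lay on A chromosomes, 84 on C chromosomes and 19 on sequences without a chromosome position. A chromosomes thus held 39.6% of the placed members, against 50.6% of the placed genes at 2 CPM or more in Avatar. C01 alone carried 29 members, 2.51% of its genes at that level. On C02 the share was 1.33%, and it was below 0.9% on every other placed chromosome, down to 0.103% on A08. Without the 25 members of a single stretch of C01, described next, A chromosomes held 48.2% of the placed members.

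The stretch ran from BnaC01g37210D to BnaC01g38650D. It was delimited after the values were seen, as members with at most 10 other genes at 2 CPM or more in Avatar between neighbours. It held 39 such genes, 25 of them members, and 37 of the 39 stood below 25% of their Avatar level in the 5 Zhongshuang 9 libraries. The 25 members are below 25% by the rule and hold the median of the stretch down, so only the other genes could have differed. The median of the 39 was 1.27% (ratio of means, 0.1 CPM added). The added 0.1 CPM sets a floor: BnaC01g38650D, with 0 counts in the 5 libraries, reads 0.995%. Without it the median gene stood at 0% to 0.195% of the Avatar mean in each of the 5 libraries. Medians of the other stretches and blocks have 0.1 CPM added as well. Taking all 145 annotated sequences between its ends, 71 had more than 2 counts in every Avatar library. Of these 71, 48 had at most 2 counts in each of the 5 Zhongshuang 9 libraries, the 25 members among them by the rule. More than 2 counts in each of the 5 libraries were found for 8 of the 71. The 10 genes before the stretch had a median of 109% of the Avatar level and the 10 after it 95.6%. Low genes reached past the outermost members on both sides: BnaC01g37150D and BnaC01g37160D, just before it, stood at 11.2% and 6.17%. Within the stretch members followed each other without a gap in runs of 10 (BnaC01g37790D to BnaC01g38120D) and of 6 (BnaC01g37490D to BnaC01g37720D). No other run was longer than 2, and 107 members stood alone.

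**Figure D2:**
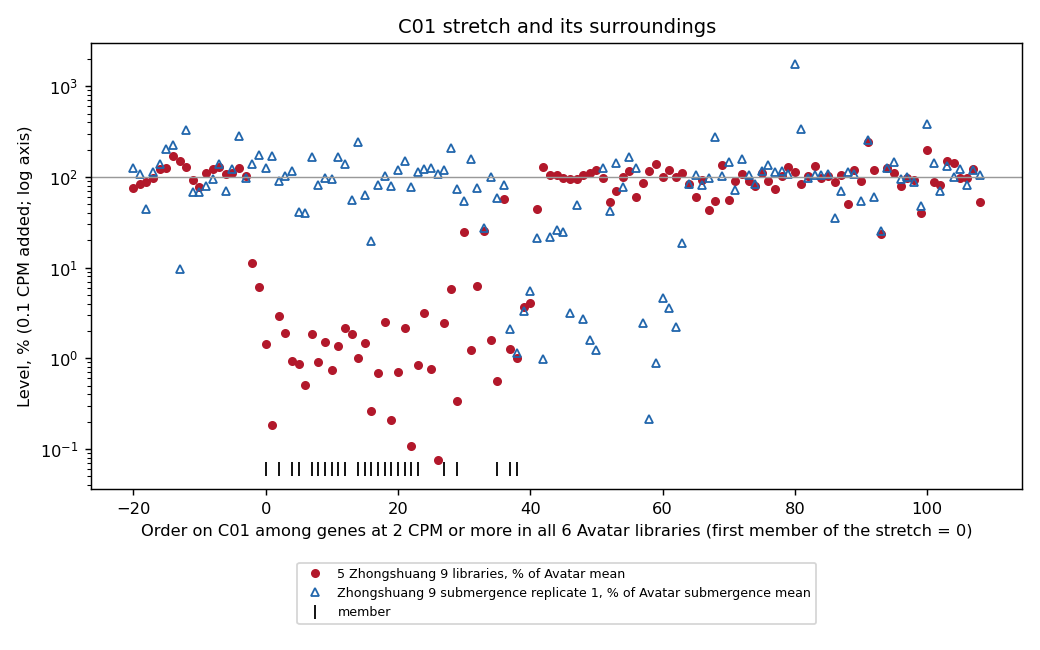
Level of genes along C01, in % of the Avatar mean for the 5 Zhongshuang 9 libraries (filled circles) and in % of the Avatar submergence mean for Zhongshuang 9 submergence replicate 1 (open triangles), on a log axis with 0.1 CPM added; ticks mark members and the horizontal axis counts genes at 2 CPM or more in all 6 Avatar libraries. The circles drop to a median of 1.27% over 39 genes, 25 of them members and low by the rule, while most triangles stay near 100%. The triangles drop at the end of the stretch and for many of the 22 genes from BnaC01g38710D on, where the circles are back near 100%. Of these 22 genes, 15 were below 50% of the other Zhongshuang 9 submergence libraries, a scale not drawn here.

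BnaC01g38060D took the most counts of all members. Its level was 71.8, 69.7 and 83.7 CPM in Avatar air replicates 1, 3 and 4 and 119, 118 and 130 CPM in Avatar submergence. In the 5 Zhongshuang 9 libraries it had 1 count in all. Zhongshuang 9 submergence replicate 1 held 95.2 CPM of it, between the Avatar groups. BnaC01g38030D, also in the stretch, stood at 28.0, 24.5 and 24.8 CPM in Avatar air and at 76.1, 76.9 and 94.0 CPM in Avatar submergence. Zhongshuang 9 submergence replicate 1 had 65.0 CPM, while the other 5 had 2 counts together.

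Shorter stretches of members lay on C05, 2 in number with 4 members each, and in both of them all genes at 2 CPM or more in Avatar were low in Zhongshuang 9. From BnaC05g42730D to BnaC05g43030D 13 of 13 such genes stood below 25%, at a median of 1.9%. From BnaC05g48610D to BnaC05g48740D the count was 8 of 8, at 0.897%, and the 10 genes on either side were low as well, at 3.92% and 4.78%. On A02, 3 members lay between BnaA02g10990D and BnaA02g11200D among 4 genes that were all low, at a median of 1.01%. In these stretches too the members are low by the rule, so only the other genes could have differed. Another group, 3 members on C02 from BnaC02g25960D to BnaC02g26930D, lay among genes of usual level, at a median of 93.8%.

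Most placed members had few neighbours below 25% of the Avatar level. A neighbour above that limit was not necessarily at the Avatar level. Of 139 placed members, 52 had no gene below 25% among the 10 nearest at 2 CPM or more in Avatar, and 102 had at most 3. All 10 neighbours were low for 23 members, each of them in the C01 stretch or in the C05 stretch that starts at BnaC05g48610D. Neighbours counted as low include other members, which are low by the rule. Low genes were not limited to members: 1218 of the 26626 genes stood below 25% of the Avatar level.

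When the placed genes were divided into 969 blocks of up to 25 along the chromosomes, the 4 lowest medians of Zhongshuang 9 over Avatar were in the blocks with the C01 and C05 stretches. They were 1.27% and 1.87% on C01 and 2.7% and 6.84% on C05. Members, low by the rule, made up 13 and 12 of the 25 genes in these C01 blocks and 4 of 25 in each C05 block. The 2 highest medians lay on the corresponding A chromosomes, in blocks without a member, as were 875 of the 969 blocks. They were 196.4% for BnaA05g33620D to BnaA05g34210D and 195.9% for BnaA01g29460D to BnaA01g30320D. These blocks were singled out by their values, and no test was made of them. The files do not pair A and C copies, so whether these blocks hold the counterparts of the stretches was not tested.

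Within the A01 block, the median gene stood at 179% to 189% of the Avatar mean in Zhongshuang 9 air and at 226% and 224% in submergence replicates 3 and 4. Zhongshuang 9 submergence replicate 1 was at 102%, above Avatar air (73.9% to 92.0%) and below Avatar submergence (109.2% to 122.3%). In the same order, the C01 stretch stood at 0% to 0.195% in the 5 libraries and at 110% in submergence replicate 1. The levels per library in this paragraph have no CPM added. The A05 block gave another picture, as submergence replicate 1 stood at 213%, beside 178% to 211% in the other Zhongshuang 9 libraries and 79.4% to 119% in Avatar. In that library the C05 stretches remained low, at 3.56% and 0%.

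**Figure D3:**
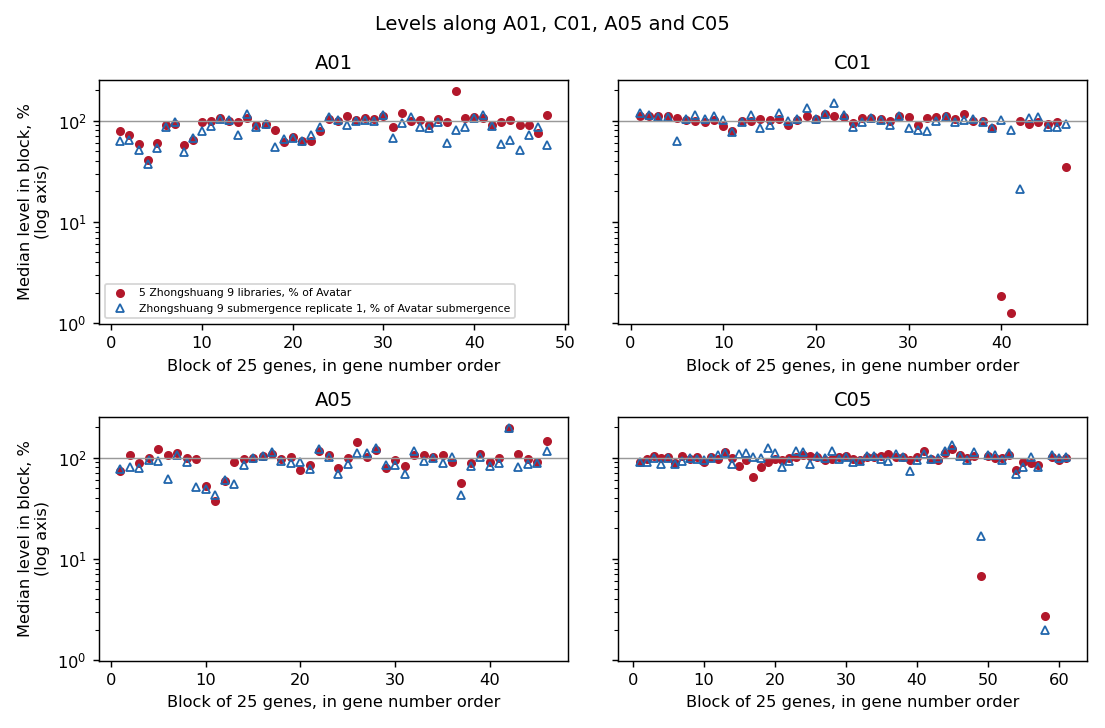
Median level in blocks of up to 25 genes along A01, C01, A05 and C05, in % of Avatar for the 5 Zhongshuang 9 libraries (filled circles) and in % of Avatar submergence for Zhongshuang 9 submergence replicate 1 (open triangles), on a log axis. The circles reach 1.27% on C01 and 2.7% on C05 and their highest values on A01 (195.9%) and A05 (196.4%); the triangle of submergence replicate 1 follows the circle in the A05 block but not in the A01 block, where it is at 81.5%.

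Zhongshuang 9 submergence replicate 1, the library outside the rule, had more than 2 counts for 81 of the 158 members, or 51.3% (exact binomial 95% interval 43.2% to 59.3%, which treats members as independent although neighbours move together). It had 0 counts for 59 members and at least 2 CPM for 55. The members held 0.0818% of its counts, against at most 0.000284% in any other Zhongshuang 9 library. As 1 library it has no replicate check.

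Levels in that library did not scale down evenly from Avatar. Relative to the mean of the 3 Avatar submergence libraries, 75 members stood below 0.01 and 40 between 0.5 and 2. A further 19 lay between 0.01 and 0.1, 21 between 0.1 and 0.5, and 3 above 2. The median over all members was 0.0117, with quartiles of 0 and 0.575. For the 72 genes of the exchanged rule, which had at most 2 counts in every Avatar library, the library had at least 2 CPM for 47 and at most 2 counts for 18.

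**Figure D4:**
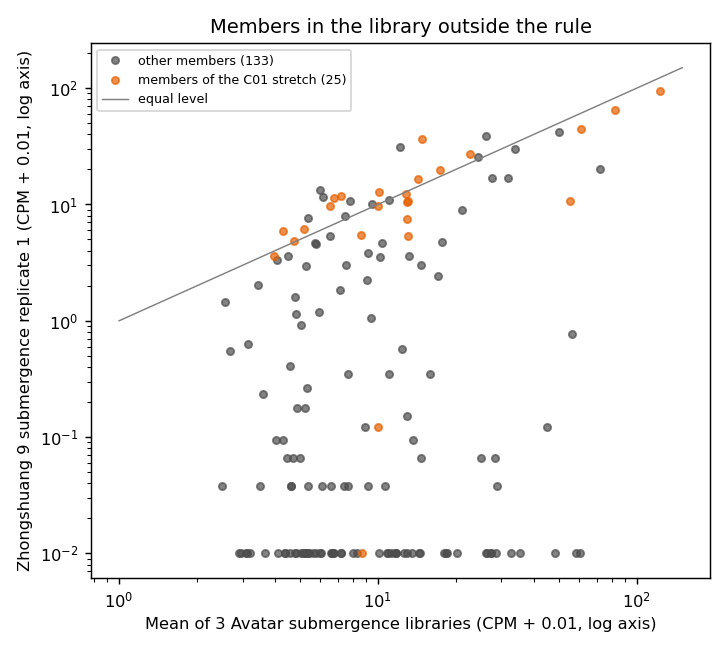
Each point is a member, by its mean in the 3 Avatar submergence libraries (horizontal) and its level in Zhongshuang 9 submergence replicate 1 (vertical), both in CPM + 0.01 on log axes, with the 25 members of the C01 stretch in orange and a line of equal level. Of the orange points 20 of 25 lie within 0.5 to 2 times the Avatar level, as do 20 of the 133 other points, and 59 points lie on the bottom row at 0 counts.

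The C01 stretch and the other members differed most plainly here. In the stretch 24 of 25 members had more than 2 counts, and 23 of them had 0.195 to 2.45 times the Avatar submergence level, with a median of 0.979. The remaining members were the 2 at its end, BnaC01g38640D with 4 counts and BnaC01g38650D with 0. Outside the stretch 57 of 133 members (42.9%) had more than 2 counts, and the median ratio of these 57 was 0.279. The 2 medians use unlike limits, over 10 counts in the stretch and over 2 outside it. Over all members, whatever their count, the medians were 0.954 in the stretch and 0.00384 outside it. After the last member came BnaC01g38670D and BnaC01g38680D, at 3.63% and 4.02% of Avatar over the 5 libraries and at 3.29% and 5.58% of Avatar submergence in submergence replicate 1, and then BnaC01g38700D, at 44.7% and 21.2%. Beyond these 3 genes the pattern changed: over the 22 genes from BnaC01g38710D to BnaC01g39470D the 5 libraries had a median of 102% of Avatar, while 15 of the 22 in submergence replicate 1 were below 50% of the other Zhongshuang 9 submergence libraries. The low genes formed separate groups, because 6 neighbours from BnaC01g39070D to BnaC01g39250D and 1 further gene were at 50% or more. The ends of these 22 genes were set from the same values, so this is a description.

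Members with the highest ratio in submergence replicate 1 were spread over chromosomes. BnaC06g17140D had 31.2 CPM there, against 14.4, 4.43 and 17.8 CPM in Avatar submergence and 8.9, 8.39 and 8.0 CPM in Avatar air. BnaC01g37790D had 36.2 CPM, against 18.9, 12.7 and 12.6 CPM in Avatar submergence. Both exceeded every Avatar library. BnaAnng02470D and BnaA02g04100D had 13.2 and 11.6 CPM, or 2.22 and 1.89 times the Avatar submergence mean, and no count in the other 5 libraries.

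At the other end, several abundant members had no count in submergence replicate 1 either. BnaC07g34090D stood at 35.4, 34.6 and 32.6 CPM in Avatar air and at 56.3, 62.8 and 55.2 CPM in Avatar submergence. It had no count in submergence replicate 1 and 6 counts in the other 5 together. BnaC05g29590D was at 26.1 to 41.8 CPM in Avatar air and at 26.5 to 41.0 CPM in submergence, overlapping groups, with 2 counts in the 5 libraries and 0 in submergence replicate 1. BnaA02g07650D, next to the member BnaA02g07640D, had no count in any Zhongshuang 9 library. Its mean of 12.7 CPM in Avatar was at least 103-fold above the floor of 3 counts in the smallest of the 5 libraries.

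Submergence changed the level of many members in Avatar, and in the fit of the 6 Avatar libraries the share was close to that of all genes tested. Of 158 members 63 passed the test, 39 higher and 24 lower under submergence (edgeR quasi-likelihood test on the 6 Avatar libraries, Benjamini-Hochberg adjusted p under 0.05). That is 39.9% of the members, beside 40.9% of the 51908 genes tested and 46.2% of the 26626 genes at 2 CPM or more in all 6 Avatar libraries. Members rose in 24.7% of cases, beside 20.2% and 20.4%, and fell in 15.2%, beside 20.7% and 25.8%. The median log2 fold change was 0.14 over the members, -0.07 over the 26626 genes and 0.03 over all tested. A change of at least 2-fold was reached by 26 of the 63 (41.3%), beside 45.6% of the called genes among the 26626 and 64.3% among all tested. The rule asks for 2 CPM in both treatments, so a gene silent in 1 of them could not be a member.

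The split into higher and lower depends on how libraries are scaled. With TMM factors, used for the calls, 61.9% of the called members were higher, and with library totals alone 86.4%, or 70 higher and 11 lower. Over all tested genes the same shares were 49.4% and 73.9%, and over the 26626 genes 44.2% and 74.1%. Over all tested genes the median log2 fold change moved from 0.03 to 0.45 with library totals. CPM values in the text use library totals, so they carry this shift. On that scale the 3 air and 3 submergence values did not overlap for 96 of 158 members, beside 64.2% of the 26626 genes. Of all 158 members, 82 were higher under submergence in this way and 14 lower. Of all 26626 genes, 12367 (46.4%) were higher and 4722 (17.7%) lower, out of 17089 that did not overlap.

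**Figure D5:**
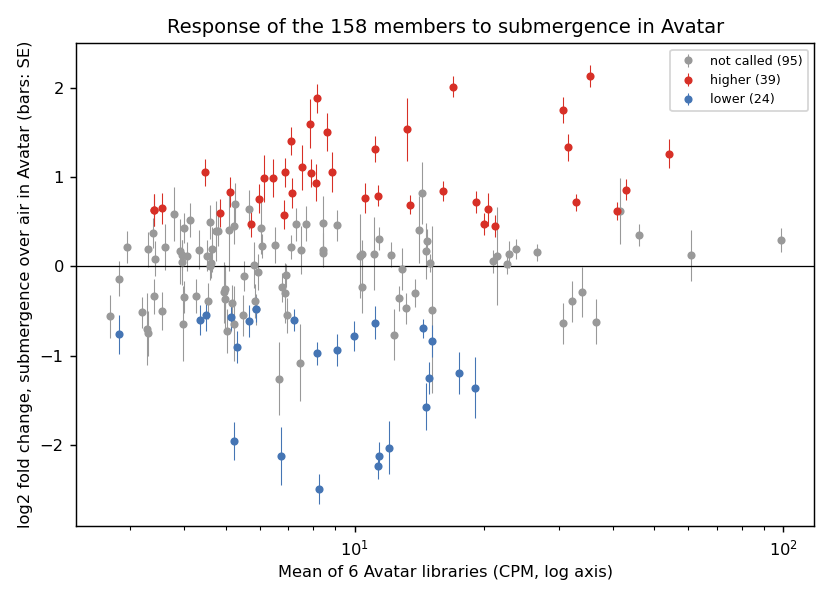
Log2 fold change of submergence over air in Avatar for the 158 members (vertical, bars are SE, n = 3 libraries per treatment) against their mean level in the 6 Avatar libraries (horizontal, CPM on a log axis), coloured by call. The 39 higher and 24 lower members are spread over the whole range of levels, and fold changes run from -2.49 to 2.13.

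The strongest riser was BnaC06g04730D, with 10.02, 10.5 and 10.3 CPM in Avatar air and 68.2, 62.5 and 50.5 CPM under submergence. The groups lay far apart, and the log2 fold change was 2.13 ± 0.12 (SE, n = 3, edgeR adjusted p = 0.000255). It had no count in Zhongshuang 9 submergence replicate 1. BnaA10g16560D went from 5.2, 5.28 and 5.37 CPM to 33.0, 27.1 and 25.6 CPM, a log2 fold change of 2.01 ± 0.12 (SE, edgeR adjusted p = 0.000264). BnaC06g15900D rose from 2.55 to 3.01 CPM in air to between 12.1 and 15.6 CPM (1.88 ± 0.16, SE, edgeR adjusted p = 0.00055), with no count in any Zhongshuang 9 library. BnaC01g44760D stood at 10.4, 10.3 and 12.6 CPM in air and at 59.7, 49.5 and 41.1 CPM under submergence, with 42.1 CPM in Zhongshuang 9 submergence replicate 1. Its log2 fold change was 1.75 ± 0.15 (SE, edgeR adjusted p = 0.000572), but with all 12 libraries in the fit the edgeR adjusted p was 0.378, the highest of its alternatives, which went down to 5.95e-21.

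Among the fallers, BnaA09g02410D dropped from 12.7, 13.5 and 13.9 CPM in air to 4.03, 2.94 and 2.59 CPM under submergence. Its log2 fold change was -2.49 ± 0.17 (SE, n = 3, edgeR adjusted p = 0.000336), and no Zhongshuang 9 library had a count. BnaCnng69470D fell from 15.8, 21.3 and 16.1 CPM to 5.21, 4.94 and 4.83 CPM (-2.24 ± 0.14, SE, edgeR adjusted p = 0.000316). BnaA02g11920D was at 10.1 to 10.6 CPM in air and at 2.17, 2.66 and 4.58 CPM under submergence, the widest spread of the 4 (-2.12 ± 0.33, SE, edgeR adjusted p = 0.00368). BnaA02g24400D fell from 16.6 to 17.9 CPM in air to between 4.24 and 6.09 CPM (-2.12 ± 0.15, SE, edgeR adjusted p = 0.000395), and had 7.65 CPM in Zhongshuang 9 submergence replicate 1. With all 12 libraries its edgeR adjusted p was 0.2, and over all alternatives it ran from 3.54e-28 to 0.2. In none of these 4 genes did air and submergence overlap.

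How the C01 stretch moved under submergence depended on the scaling. With TMM factors 7 of the 25 members rose, 7 fell and 11 did not pass the test (edgeR). Log2 fold changes ran from -1.36 to 1.26 with a median of 0.22. The called share was 56%, beside 40.9% of all genes tested and 46.2% of the 26626 genes, a difference that was not tested. With library totals 16 were called higher and 2 lower, with a median of 0.63, and limma on TPM called 13 higher and 2 lower. These scalings also raised the share of higher calls over all tested genes, from 49.4% with TMM factors to 73.9% and 71.2%. The CPM values of air and submergence did not overlap for 20 of the 25, beside 64.2% of the 26626 genes. Of the 25, 16 were higher and 4 lower in this way, beside 46.4% and 17.7% of the 26626 genes. In the fit of all 12 libraries 1 of the 25 was called, beside 40% of all genes tested and 45.8% of the 26626 genes (the limit of that fit is given below). BnaC01g38030D rose by 1.26 ± 0.16 (SE, n = 3, edgeR adjusted p = 0.00205), although with all 12 libraries the edgeR adjusted p was 0.545 (9.23e-10 to 0.545 over all alternatives). BnaC01g37790D rose by 0.77 ± 0.17 (SE, edgeR adjusted p = 0.0129), and without Avatar air replicate 4 its edgeR adjusted p was 0.0505 (0.00114 to 0.693 over all alternatives). BnaC01g38060D, at 0.29 ± 0.13 (SE), did not pass (edgeR adjusted p = 0.126). With library totals its log2 fold change was 0.71 and the edgeR adjusted p 0.00384 (0.00384 to 0.883 over all alternatives). BnaC01g37720D, the last of the run of 6, was called lower with a log2 fold change of -0.55 ± 0.17 (SE, edgeR adjusted p = 0.0461). That call was lost without Avatar air replicate 1, 3 or 4 and without submergence replicate 1 or 4, with edgeR adjusted p from 0.0607 to 0.134 (0.0343 to 0.806 over all alternatives). Its CPM values in air and submergence overlapped.

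Several abundant members did not pass the test. BnaA04g29080D stood at 28.9, 59.9 and 60.5 CPM in Avatar air and at 86.3, 75.7 and 54.9 CPM under submergence, overlapping groups (log2 fold change 0.13 ± 0.29, SE, edgeR adjusted p = 0.758). Zhongshuang 9 submergence replicate 1 held 20.2 CPM of it, below every Avatar library. BnaC07g34090D, whose CPM values did not overlap between treatments, had a log2 fold change of 0.35 ± 0.12 after TMM scaling (SE, edgeR adjusted p = 0.0561). At the lower edge of the rule, BnaC02g26900D rose by 1.05 ± 0.15 (SE, edgeR adjusted p = 0.00288) and BnaA03g46850D by 0.63 ± 0.18 (SE, edgeR adjusted p = 0.0307). BnaA10g26520D, also a member, has the same length and the same values as BnaA03g46850D in all 12 libraries, so these values cannot be assigned to either gene alone. The call of both was lost without Avatar air replicate 1, 3 or 4 and without submergence replicate 3 or 4, with edgeR adjusted p from 0.0711 to 0.0916 (0.00255 to 0.12 over all alternatives).

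Called members were found among all kinds of members. On A chromosomes 11 of 55 rose and 8 fell, and on C chromosomes 24 of 84 rose and 14 fell (edgeR). The called shares were 34.55% and 45.24%, beside 40.9% of all genes tested and 46.2% of the 26626 genes. Among the 81 members counted in Zhongshuang 9 submergence replicate 1, 20 rose and 16 fell in Avatar. Among the 77 others, 19 rose and 8 fell. Called were thus 44.44% of the 81 and 35.06% of the 77. Differences between these subsets were not tested, and the called shares over all A or all C genes were not counted.

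The number of called members depended on the libraries in the fit. With all 12 libraries sharing 1 estimate of spread it was 23 (14.6%), beside 40% of all genes tested and 45.8% of those at 2 CPM or more in Avatar. With Zhongshuang 9 submergence replicate 1 left out of that fit it was 54 (34.2%), beside 45.6% and 53.2%. The members' share was thus below that of other genes in both of these fits. Of 15 members whose neighbours were shifted by over 0.5 (log2, median of 10) in a single Avatar library against the other 2 of its group, 3 were called. For most of the 15 that library was Avatar air replicate 1, where the neighbours were lower, as beside BnaA02g04100D (-1.055) and BnaA03g13720D (-1.012). For the rest it was Avatar air replicate 3 or submergence replicate 1. The fit without Avatar air replicate 1 called 53 members (33.5%), beside 33.9% of all genes tested. Without these 15, 60 of 143 were called. These shares were 20% and 41.96%, beside 40.9% of all genes tested in the fit of the 6 Avatar libraries.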

How the data were processed

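Each of 12 deposited tables lists, per the file headers, estimated counts and TPM for 101040 coding sequences. Kallisto, edgeR and limma appear in the submitters' processing notes. The sources used here do not give their versions, the genome build, the annotation or the strand setting. The authors' TPM, deposited beside the counts, were used for levels per length and in an alternative. The members, stretches and tests were chosen with earlier results of these data known.

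Estimated counts were rounded to whole numbers (Python 3.11.15, pandas 2.3.3), and CPM is the rounded count scaled by the library sum. For submergence against air in Avatar, genes kept by filterByExpr on the 6 Avatar libraries (51908) were tested with the quasi-likelihood F test of edgeR 4.0.16 (R 4.3.3), with TMM factors of 0.83 to 0.897 in air and 1.1 to 1.23 under submergence, and Benjamini-Hochberg adjustment over all of them. The 12-library fit was kept as an alternative, because the spread of a member in Zhongshuang 9 submergence takes in replicate 1. The standard error is the fold change divided by the root of F. The test was checked on simulated data with 100 changes of 2-fold and 100 of 4-fold planted among 50577 genes. It recovered the size of the planted changes, but 0 of the 2-fold and 42 of the 4-fold changes passed after adjustment. In the data 40.9% of the genes tested were called, so the adjustment was stricter in the simulation and these rates do not carry over. A member that was not called may still have changed. Log2 ratios along chromosomes had 0.1 CPM added.

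Named members are, by rule, the 4 with the highest mean, the 4 that rose and the 4 that fell most, the 4 highest in Zhongshuang 9 submergence replicate 1 relative to Avatar, the 4 highest with at most 2 counts there, the ends of the 3 longest runs and the genes at the limits of the rule; the genes that end other stretches and blocks, and those at the end of the C01 stretch, were named after their values were seen. Leaf marker genes could not be checked, because 3347 of the identifiers matched the reference table (1 member) and functions are not assigned there. Replicate pairs all differed by more than counting noise, with a chi-square per gene of 5.05 or more where 1 stands for noise alone. Same-numbered Avatar air and submergence libraries did not deviate together (correlations -0.106, -0.0572 and -0.074), so replicate numbers were not used as pairs.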

Additional observations from a re-analysis of the deposited data

Results flagged for a closer look

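A signal in a library that the rule did not use was found for 81 of the 158 members: Zhongshuang 9 submergence replicate 1 had more than 2 counts for each of them, above the limit of 2 that held in the other 5 Zhongshuang 9 libraries. In the C01 stretch from BnaC01g37210D to BnaC01g38650D this was so for 24 of 25 members. In the block of A01 named in the report that library stood at 102% of the Avatar mean, against 179% to 226% in the other Zhongshuang 9 libraries. A cause was not tested. Groups of 3 libraries are too small for a search for single outlying values.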

How the results depend on the processing

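The number of members followed the limits: 258 with at least 1 CPM, 64 with at least 5 CPM, 57 with 0 counts in Zhongshuang 9, 260 with at most 10 counts, 77 with Zhongshuang 9 submergence replicate 1 held to the same limit, and 161 to 177 with single libraries left out of the rule. Submergence replicate 1 counted 62.7% of the members above 0 counts and 34.8% at 2 CPM or more. Its median ratio to Avatar submergence was 0.0122 with TPM and 0.0112 to 0.0123 with single Avatar submergence replicates left out. For the response in Avatar, the fit of all 12 libraries called 23 members, 16 higher and 7 lower (14.6%, beside 40% of all genes tested). Higher and lower members were 70 and 11 with library totals alone, 66 and 11 with limma on log2(TPM + 1), and 64 and 11 with limma on log2(TPM + 0.1). In these settings 86.4%, 85.7% and 85.3% of the members' calls were higher. Over all tested genes the shares were 73.9%, 71.2% and 71.2%. Single libraries left out gave 47 to 62 called members (29 to 40 higher, 17 to 22 lower), or 29.7% to 39.2%. The same fits called 30% to 38.4% of all tested genes and 34.1% to 45.4% of the 26626 genes. With the replicate number as a block 46 members (29.1%) were called, beside 29.6% of all tested genes, but the numbers are not shown to pair the samples. Over 25 named members and all alternatives to the fit, 330 fold changes stayed on their side of the threshold, 25 lost a call, 20 gained one and no called one changed sign. Members with few counts near 2 CPM and those that share reads with similar sequences are the least certain. The binomial intervals of shares of members take in neither counting error nor the spread between libraries.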
